A study of Macaca fascicularis with 32 samples.

Results

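The lysosomal proton pump, the cathepsins and the lysosome-associated membrane proteins (LAMPs) were followed across cell classes, regions and treatments in single-nucleus RNA libraries of the macaque basal ganglia. Members were all genes whose symbol starts with ATP6V or ATP6AP, is CTS followed by 1 letter, or starts with LAMP followed by a digit. This rule took 43 of 22316 annotated genes: 9 subunits of the V0 sector, 11 of the V1 sector, 3 accessory proteins, 15 cathepsins, 4 LAMPs, and ATP6V1FNB, which neighbours ATP6V1F and is not a subunit of the pump. No row carried the symbols ATP6V1A or ATP6V1G2, and 6019 rows carry no symbol at all.

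The vacuolar ATPase pumps protons into lysosomes and other organelles. Its V1 sector, in the cytosol, splits ATP and turns a rotor, and its V0 sector, in the membrane, carries the protons through. Cathepsins are proteases of the acid lumen: CTSD is an aspartyl protease, CTSA a serine carboxypeptidase, and most of the others are cysteine proteases. LAMP1 and LAMP2 are abundant glycoproteins of the lysosomal membrane, and lysosomal breakdown is one of the routes by which neurons dispose of α-synuclein.

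Tissue was taken from 3 regions: the substantia nigra (SN), home of the dopaminergic neurons of the midbrain, and the putamen (PUT) and caudate (CN) of the striatum. The organism is given as Macaca fascicularis. The series title describes a Parkinson's disease (PD) model made with AAV-α-synuclein, a viral vector, plus Poly(ADP-ribose). Samples are labelled PD or CT in each region, and the labels used here say nothing of what CT animals received, nor of age, sex or time after injection. There are 32 labelled samples, 8 in either striatal CT group and 4 in every other group. The counts came as 6 matrices, 1 per region and label, and nothing ties a barcode to an animal.

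Each matrix was therefore 1 library, and no test between PD and CT was possible. Differences between animals and between libraries cannot be told apart from the treatment. Levels are given as CPM, the UMIs (unique molecular counts) of a gene per 1000000 UMIs of its class in the library. Brackets hold exact 95% intervals, Poisson for a level and conditional binomial for a ratio, and they cover counting error only. Total UMIs per matrix ran from 18692617 to 36723856, and 52728 of 56659 barcodes were retained, with median depths of 1170 to 3022 UMIs. Of 106 clusters, 75 drew over 50% of their nuclei from 1 library, so a class was often held by different clusters in CT and PD. Pairs of libraries shared 14 to 38 barcodes.

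Classes were named from marker genes alone and are called "-like" for that reason. Dopaminergic neuron-like nuclei were found in the SN only (357 CT and 277 PD nuclei), where their markers summed to 2349 CPM in CT and 2278 CPM in PD. Spiny projection neurons (SPNs), the main output neurons of the striatum, were divided into direct-pathway and indirect-pathway classes. The other classes were other neurons, microglia or macrophages, astrocytes, oligodendrocytes and oligodendrocyte precursors (OPCs). A class was compared where both libraries of a region held at least 100 nuclei, which gave 19 comparisons and left out SN astrocytes, with 79 PD nuclei.

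A member counted as measured in a comparison with at least 50 UMIs over both libraries. Of the 43 members, 33 passed this minimum in at least 1 comparison: 8 of 9 V0 genes, 8 of 11 V1 genes, 3 of 3 accessory genes, 11 of 15 cathepsins and 3 of 4 LAMPs. The 10 others were ATP6V0A4, ATP6V1B1, ATP6V1E2, ATP6V1G3, ATP6V1FNB, CTSE, CTSG, CTSV, CTSW and LAMP3. CTSG, a protease of neutrophil granules, had 0 UMIs in all 6 matrices, which allows a level of up to 0.0181 CPM (3 counts), and CTSE had 1 UMI. CTSV, a close paralog of CTSL, had 93 UMIs against 3425 for CTSL, and how reads common to this pair were counted is not given in the sources used here. A member was called past the fold when PD and CT differed by at least 1.5 times, with 0.5 UMI added to each count.

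Several cathepsins marked the microglia-like nuclei in every matrix. CTSH, an aminopeptidase, was at 296 CPM in SN CT and 350.7 in SN PD, at 225.8 and 366.8 in PUT CT and PD, and at 174.9 and 266.4 in CN CT and PD. In each matrix the next highest class was at least 13.5 times lower. CTSS, which works in antigen processing, was at 341.8 and 283.3 CPM in the SN, 284.7 and 177.5 in the PUT, and 299.8 and 245.5 in the CN, at least 3.83 times the next class.

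CTSC, which activates serine proteases of immune cells, varied more among microglia-like nuclei. Its level was 198.3 CPM in SN CT and 325.7 in SN PD, 65.5 and 127.2 in the PUT, and 299.8 and 292.5 in the CN. The class that followed it in all 6 matrices was OPC-like nuclei, at 20.9 to 40.6 CPM. CTSZ (41.4 to 76.3 CPM) and CTSB (68.7 to 107.9 CPM) were also highest in microglia-like nuclei in all 6 matrices, at least 8.62 and 2.27 times the next class. CTSH was detected in 10.6% to 25.9% of microglia-like nuclei at median depths of 765.5 to 989 UMIs, and in 0.107% to 0.913% of oligodendrocyte-like nuclei at 844 to 1207 UMIs. The part of free RNA in the oligodendrocyte shares was not tested.

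**Figure D1:**
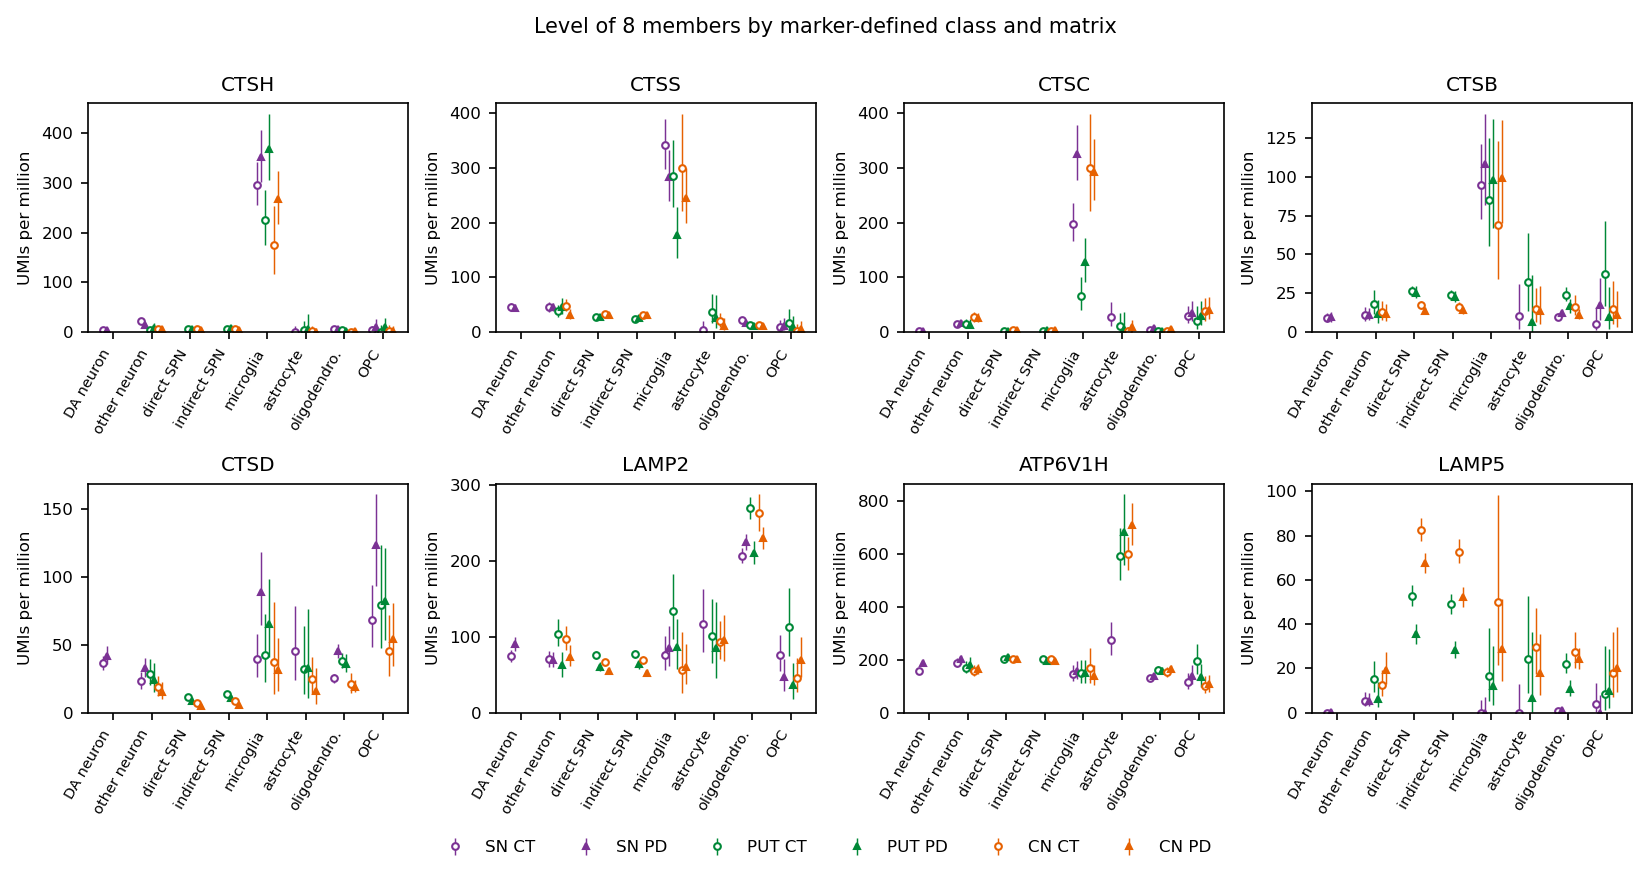
CPM of 8 members (vertical axes, linear from 0) by marker-defined class (horizontal axes) in each matrix with at least 100 nuclei of the class; open circles are CT, filled triangles PD, colours are regions and bars exact 95% Poisson intervals of the counts. CTSH, CTSS, CTSC and CTSB stand highest in microglia-like nuclei, LAMP2 in oligodendrocyte-like nuclei (206.7 to 269.2), and ATP6V1H in striatal astrocyte-like nuclei (593.5 to 711).

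Other members had different homes. LAMP2 was highest in oligodendrocyte-like nuclei in all 6 matrices, at 206.7 and 224.5 CPM in SN CT and PD, 269.2 and 210.7 in the PUT, and 262.3 and 229.6 in the CN. The next class was 1.78 to 2.71 times lower. CTSD was highest in OPC-like nuclei in all 6 matrices, from 45.7 CPM in CN CT to 123.8 in SN PD, but its lead over the next class was 1.22 to 1.86 times and the Poisson intervals of the pair overlapped in some matrices.

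ATP6V1H, a regulatory subunit of V1, was highest in astrocyte-like nuclei wherever these reached 100 nuclei. It stood at 593.5 CPM in PUT CT, 683.1 in PUT PD, 600.3 in CN CT and 711 in CN PD, and at 274.5 in SN CT. In the 4 striatal matrices this was 2.94 to 3.48 times the next class, and in the SN CT matrix 1.45 times. LAMP5, a LAMP family member of neurons, was highest in direct SPN-like nuclei in 4 of 6 matrices, the striatal ones, at 35.4 to 82.6 CPM. The indirect class held 28.4 to 72.8 CPM. Other striatal classes also held LAMP5, with 27.5 CPM in CT and 24.1 in PD in CN oligodendrocyte-like nuclei. In CN CT it was at 29.8 CPM in astrocyte-like nuclei and at 50 in microglia-like nuclei, from 18 and 8 UMIs. In the SN it was lower, at 5.38 CPM in CT and 5.25 in PD in other neurons (13 and 15 UMIs), with 0 UMIs in CT and 2 in PD in dopaminergic neuron-like nuclei and 7 and 8 UMIs in oligodendrocyte-like nuclei.

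ATP6V0D2, an alternative d subunit known from osteoclasts, was also found mainly in SPN-like nuclei. Direct SPN-like nuclei held 11.2 CPM in PUT CT, 15.9 in PUT PD, 7.66 in CN CT and 9.07 in CN PD. Indirect SPN-like nuclei held 6.7 and 8.24 CPM in the PUT and 6.82 and 11.7 in the CN. No class outside these SPN-like nuclei held more than 6 UMIs of it in any matrix. The general V0 and V1 subunits ATP6V0B, ATP6V0C, ATP6V0E1, ATP6V1C1 and ATP6V1G1 were highest in microglia-like nuclei in 6 of 6 matrices, though the next class could be as close as 1.04 times for ATP6V1C1 and 1.11 times for ATP6V0B.

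Medians over the members lay close to 0 in most classes of the SN. In dopaminergic neuron-like nuclei 25 members were measured, with a median log2 PD/CT of 0.05 beside 0.03 over all genes tested. Of these, 3 were past the fold higher (7.47% of all genes) and 1 lower (6.29%), or 3 and 2 after centring on the median of all genes. In other neurons of the SN the median of 27 members was 0.09 (all genes -0.03), with 1 higher (4.49%) and 3 lower (6.99%). In SN oligodendrocyte-like nuclei it was 0.09 over 30 members (all genes -0.03), with 3 higher (7.48%) and 1 lower (9.65%). In SN microglia-like nuclei it was 0.19 over 17 members (all genes 0.05), with 5 higher (14.7%) and 0 lower (10.9%), or 3 and 0 after centring. OPC-like nuclei of the SN had 5 measured members, with a median of -0.22 (all genes 0.0041), 1 higher (5.44%) and 1 lower (6.87%).

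In the striatum most medians lay below 0. Direct SPN-like nuclei of the PUT had a median of -0.27 over 30 members (all genes -0.04), with 1 higher (5.24%) and 6 lower (8.65%), or 1 and 5 after centring. Indirect SPN-like nuclei of the PUT had -0.15 over 30 (all genes -0.05), with 3 higher (5.37%) and 4 lower (8.5%). Oligodendrocyte-like nuclei of the PUT had -0.25 over 27 (all genes -0.08), with 1 higher (5.11%) and 5 lower (13.8%).

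In the CN the medians over all genes of SPN-like nuclei lay below 0, at -0.14 (direct) and -0.15 (indirect), and members are read against these medians. Direct SPN-like nuclei had a median of -0.23 over 32 members, with 2 higher (3.41%) and 5 lower (13.5%), or 2 and 2 after centring: ATP6V0B and CTSL stayed past the fold lower, ATP6V1D, ATP6V1F and CTSH did not. Indirect SPN-like nuclei had -0.24 over 32, with 6 higher (3.62%) and 5 lower (14.0%), or 6 and 1 after centring, with ATP6V0B the 1 that stayed. Oligodendrocyte-like nuclei of the CN had -0.19 over 25 (all genes -0.08), with 2 higher (5.41%) and 3 lower (12.7%), and the split was the same after centring.

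The remaining striatal comparisons held fewer members. Other neurons had a median of -0.15 over 15 members in the PUT (all genes -0.03), with 1 higher (4.9%) and 2 lower (7.27%), and of -0.14 over 21 in the CN (all genes -0.08), with 2 higher (3.72%) and 2 lower (10.7%), or 2 and 1 after centring. In microglia-like nuclei, 2 of 11 members were higher (9.34%) and 4 lower (8.31%) in the PUT, and 3 of 7 higher (12.1%) and 0 lower (8.26%) in the CN, or 2 and 0 after centring. Astrocyte-like nuclei had 2 measured members in the PUT, of which 1 was higher (8.45%) and 0 lower (8.51%), and 5 in the CN, of which 0 were past the fold (6.44% of all genes higher, 10.1% lower). OPC-like nuclei had 2 measured members in each striatal region and 0 past the fold (background 6.8% and 6.36% in the PUT, 5.8% and 8.16% in the CN).

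**Figure D2:**
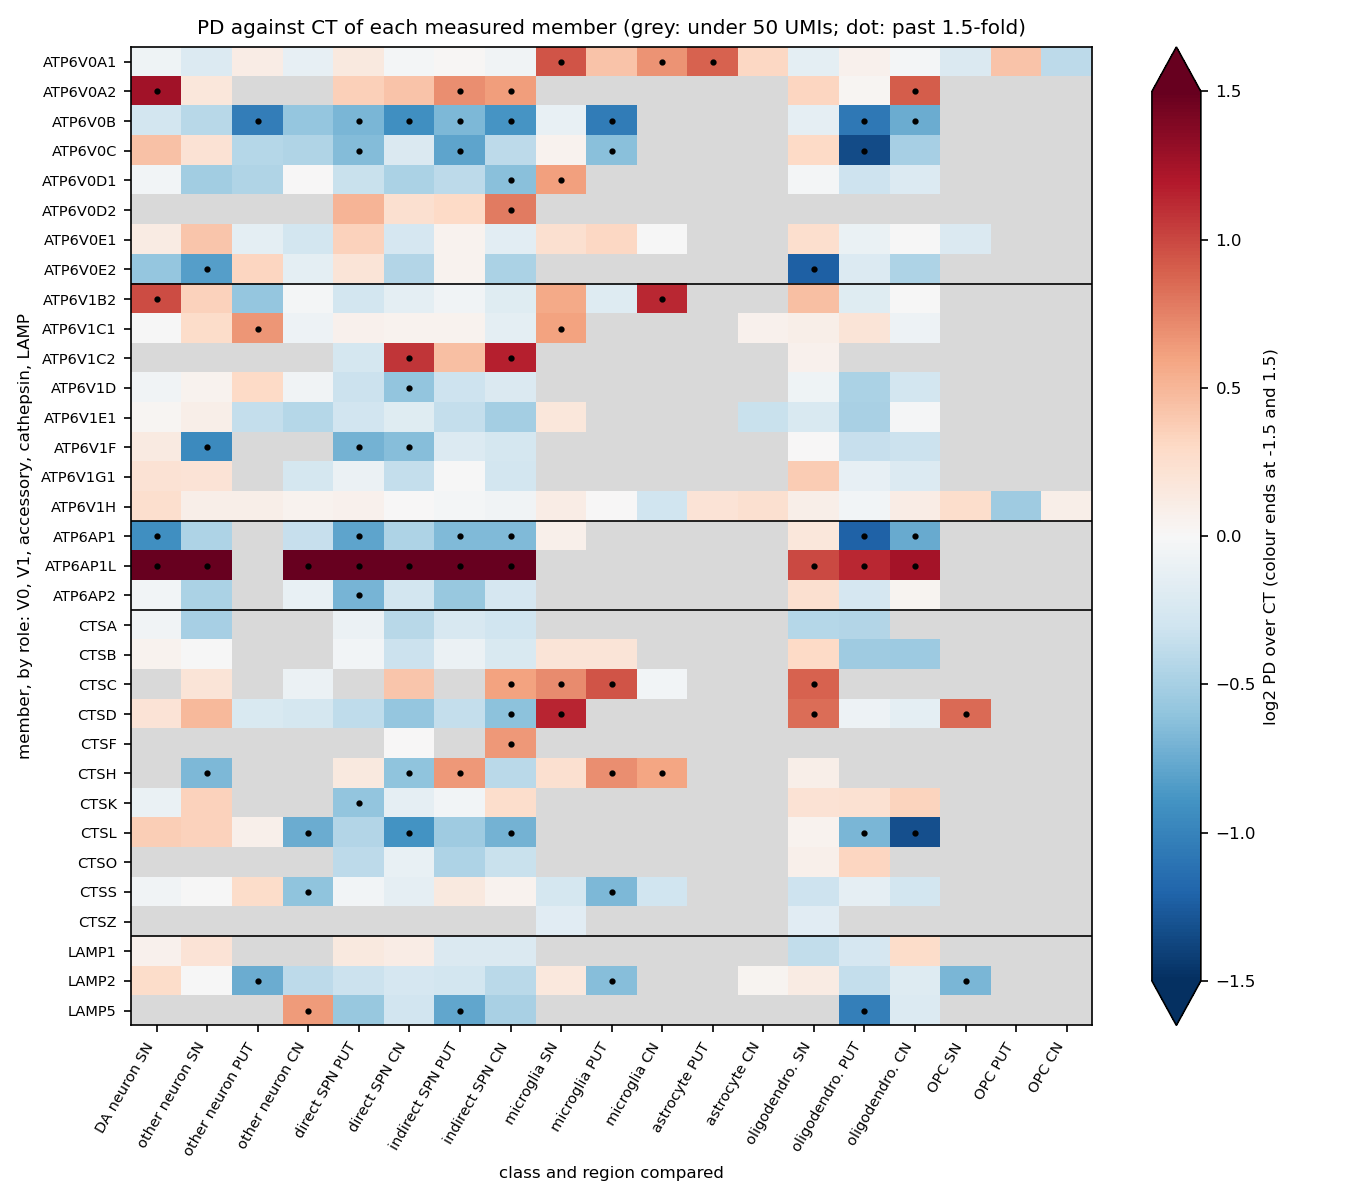
Colour gives the log2 ratio of PD over CT for the 33 measured members (rows, grouped by role) in the 19 comparisons of class and region (columns); grey marks fewer than 50 UMIs and a dot a difference past 1.5-fold. ATP6AP1L is red in all 10 comparisons where it was measured and ATP6V0B blue in all 13.

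ATP6V0A1, the a subunit found throughout the brain, had UMIs enough in all 19 comparisons. In the 8 comparisons of neurons its ratios lay between 0.867 and 1.11, and dopaminergic neuron-like nuclei held 462.4 CPM in CT and 440.8 in PD, a ratio of 0.953 (0.896 to 1.01). In microglia-like nuclei it was higher in PD in every region. The SN value went from 352.4 CPM in CT to 678.3 in PD, a ratio of 1.93 (1.63 to 2.28). In the PUT the values were 307.7 and 414.1 (1.35, 1.03 to 1.77), and in the CN 287.3 and 462.2 (1.61, 1.16 to 2.28). Within the 1 PUT cluster that both libraries filled, the ratio was 1.02 (0.63 to 1.76). Astrocyte-like nuclei of the PUT also held more in PD, 380.9 against 205.9 CPM, a ratio of 1.85 (1.25 to 2.75) from 58 and 51 UMIs.

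ATP6V0A2, a second a subunit, was above CT in PD in all 9 comparisons where it was measured. Dopaminergic neuron-like nuclei went from 8.46 CPM in CT to 20.3 in PD, a ratio of 2.4 (1.65 to 3.53). Indirect SPN-like nuclei went from 10.7 to 17.4 CPM in the PUT (1.63, 1.25 to 2.13) and from 8.52 to 13.2 in the CN (1.55, 1.18 to 2.05). In direct SPN-like nuclei the ratios of 1.28 and 1.35 stayed inside the fold. Among dopaminergic clusters of at least 50 nuclei, the 3 in CT lay at 4.11 to 11.2 CPM and the 2 in PD at 12.9 to 23.7. Clusters of 1 library are not replicates, and the share of all genes whose clusters separate this way is not given here. The same limit holds for the cluster ranges of other members below.

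ATP6V0B and ATP6V0C, proteolipids of the rotor ring, were lower in PD across striatal classes. ATP6V0B was below CT in all 13 comparisons and past the fold in 8, all in the striatum. Direct SPN-like nuclei held 25.6 CPM in CT and 15.9 in PD in the PUT (0.622, 0.491 to 0.784), and 24.7 and 13.1 in the CN (0.529, 0.434 to 0.643). Indirect SPN-like nuclei held 27.1 and 17 CPM in the PUT (0.628, 0.503 to 0.78), and 17.7 and 9.62 in the CN (0.542, 0.422 to 0.694). The PUT oligodendrocyte-like nuclei showed 69 and 32.6 CPM (0.473, 0.38 to 0.585). In the SN the ratio was 0.912 (0.791 to 1.05) in oligodendrocyte-like nuclei and 0.822 (0.619 to 1.09) in dopaminergic neuron-like nuclei.

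ATP6V0C had its lowest ratio in oligodendrocyte-like nuclei of the PUT, with 93.8 CPM in CT and 37 in PD, a ratio of 0.394 (0.323 to 0.479). The 3 CT clusters were at 85.8 to 109.3 CPM and the 5 PD clusters at 32.8 to 41.2. In the CN the same class held 55.6 and 39.5 CPM (0.711, 0.548 to 0.926). In the SN it held 30.2 and 37.3 CPM, on the other side of 1 (1.23, 1.04 to 1.46). Indirect SPN-like nuclei of the PUT had 36.9 and 21.3 CPM (0.576, 0.474 to 0.698), while dopaminergic neuron-like nuclei had 18.2 and 24.8 (1.36, 1.02 to 1.82).

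**Figure D3:**
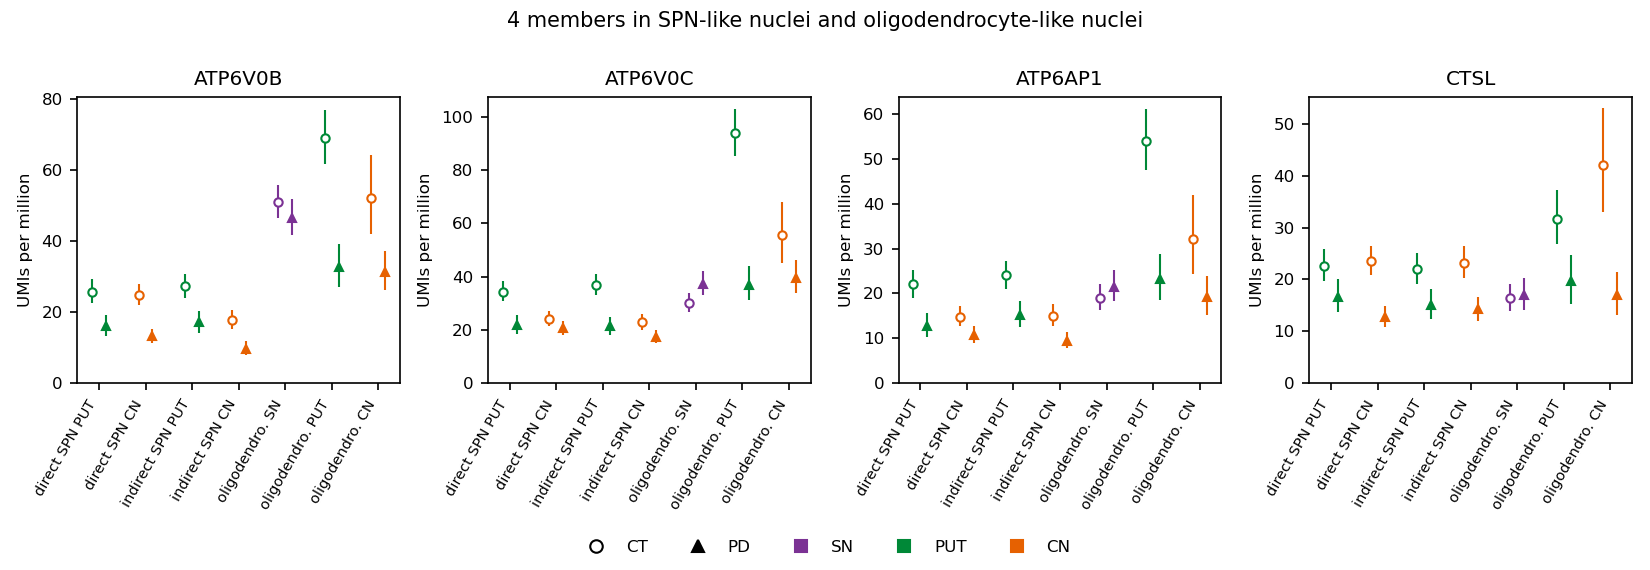
CPM (linear axes from 0) of ATP6V0B, ATP6V0C, ATP6AP1 and CTSL in SPN-like and oligodendrocyte-like nuclei by region; open circles are CT, filled triangles PD, bars exact 95% Poisson intervals. PD lies below CT in every striatal pair, while the SN oligodendrocyte pairs lie close together, with ATP6V0C at 30.2 in CT and 37.3 in PD.

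Transcripts for ribosomal proteins moved the same way in these striatal classes. In PUT oligodendrocyte-like nuclei the 53 measured ribosomal protein genes had a median log2 PD/CT of -0.53, with 52 below 0 and 22 past the fold lower, and their summed level was 3644 CPM in CT and 2478 in PD. In the CN the median was -0.60, in SPN-like nuclei -0.21 to -0.30, and in SN oligodendrocyte-like nuclei 0.16. Their part in the lower ATP6V0B and ATP6V0C was not tested.

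ATP6V0E2, 1 of 2 e subunits, was lower in the SN. Oligodendrocyte-like nuclei held 40.8 CPM in CT and 17.4 in PD, a ratio of 0.427 (0.346 to 0.523). The 5 CT clusters were at 36.2 to 57.1 CPM and the 7 PD clusters at 0 to 20.7. Other neurons of the SN held 38.1 and 21.4 CPM (0.561, 0.399 to 0.784), and dopaminergic neuron-like nuclei 34 and 22.8 (0.669, 0.514 to 0.866). All 9 ratios within single SN clusters were below 1, from 0.343 to 0.896. The paralog ATP6V0E1 had SN ratios above 1 in the same classes: 1.19 (1.04 to 1.36), 1.33 (1.05 to 1.69) and 1.09 (0.895 to 1.33) in the order given.

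The d subunits changed less. ATP6V0D1 was past the fold lower in indirect SPN-like nuclei of the CN, with 37.9 and 24.5 CPM (0.645, 0.55 to 0.757), and inside it after centring. In SN microglia-like nuclei its ratio of 1.53 had an interval that held 1 (0.903 to 2.63). ATP6V0D2 was above CT in all 4 SPN comparisons and past the fold in 1, the indirect class of the CN, at 6.82 and 11.7 CPM (1.72, 1.27 to 2.34). Within 1 cluster of that class its log2 difference was 0.11.

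V1 subunits differed in how often they were past the fold. ATP6V1H, measured in all 19 comparisons, had ratios from 0.688 to 1.2 and was past the fold in none. ATP6V1E1 and ATP6V1G1, stalk subunits, were past it in 0 of 13 and 0 of 10 comparisons. ATP6V1D, a part of the central rotor, was past it in 1 of 11, the direct SPN-like nuclei of the CN (29.1 and 19.3 CPM, 0.665, 0.561 to 0.786), and inside it after centring. ATP6V1F was past it in 3 of 9, all lower, with 10.6 and 6.43 CPM in direct SPN-like nuclei of the PUT (0.606, 0.414 to 0.873).

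ATP6V1B2, the brain form of the nucleotide-binding B subunit, was higher in PD dopaminergic neuron-like nuclei, with 28.7 CPM in CT and 56.8 in PD, a ratio of 1.98 (1.6 to 2.44). Its 3 CT clusters lay at 23.2 to 37.7 CPM and its 2 PD clusters at 51.8 to 64.8. Inside the 1 cluster that both libraries filled, the log2 difference was 0.46. After thinning each nucleus to 1000 UMIs the sign turned, at -0.69, a value without an interval. Median depths before thinning were 14225 UMIs in CT and 14176 in PD. Only a small part of the 153 CT and 227 PD UMIs of this gene was thus left. SPN-like nuclei showed ratios of 0.825 to 0.963 for this gene.

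ATP6V1C2, an alternative C subunit, was higher in SPN-like nuclei of the CN. The direct class went from 12.8 CPM in CT to 27.1 in PD (2.11, 1.74 to 2.58) and the indirect class from 8.72 to 19.7 (2.26, 1.75 to 2.93). In the PUT, levels were 4.59 and 3.8 CPM in the direct class (0.827, 0.486 to 1.38) and 4.02 and 5.49 in the indirect class (1.36, 0.856 to 2.18). Within the 1 indirect cluster that both CN libraries filled, the ratio was 2.24 (1.14 to 4.72). The common ATP6V1C1 had ratios of 0.906 to 1.05 in the 4 SPN comparisons. In other neurons of the PUT it was past the fold higher, at 33.2 and 52.6 CPM (1.59, 1.04 to 2.43).

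ATP6AP1L, a gene named for its likeness to the accessory subunit ATP6AP1, had the highest ratios of PD over CT among the 33 measured members. It was past the fold higher in 10 of 10 comparisons. Dopaminergic neuron-like nuclei held 7.7 CPM in CT and 39.5 in PD, a ratio of 5.13 (3.62 to 7.42). Other neurons held 8.69 and 41 CPM in the SN (4.71, 2.94 to 7.9), and 9.04 and 31.7 in the CN (3.5, 1.91 to 6.85).

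Direct SPN-like nuclei had 4.81 CPM of ATP6AP1L in PUT CT and 27.8 in PUT PD (5.77, 4.13 to 8.2), and 4.34 and 23.4 in the CN (5.39, 3.99 to 7.41). Indirect SPN-like nuclei had 4.54 and 30.9 CPM in the PUT (6.81, 4.91 to 9.63), and 4.51 and 27.7 in the CN (6.13, 4.47 to 8.59). Oligodendrocyte-like nuclei started from a higher CT level, with 26.4 and 52.3 CPM in the SN (1.98, 1.68 to 2.34), 21.3 and 46.7 in the PUT (2.19, 1.7 to 2.84), and 15.8 and 38.1 in the CN (2.41, 1.59 to 3.77). PD levels were 23.4 to 41 CPM in neurons and 38.1 to 52.3 in oligodendrocyte-like nuclei. CT levels were 4.34 to 9.04 and 15.8 to 26.4 CPM. In each region the oligodendrocyte value was above those of neurons, in PD as in CT.

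Higher ATP6AP1L in PD was also seen inside clusters. Of 19 ratios taken within a single cluster and region, all were above 1, from 1.35 to 21.1, and 13 had an interval above 1. Among oligodendrocyte-like clusters of the SN, ratios were 1.89 to 3.09. Thinning to 1000 UMIs lowered the log2 difference of SN other neurons from 2.21 to 0.51, inside the fold, and that of PUT indirect SPN-like nuclei from 2.75 to 1.70. These thinned values carry no interval. The SN other neurons had median depths of 6720 UMIs in CT and 7132 in PD. Only a small part of their 21 CT and 117 PD UMIs of the gene was left. Restricting a class to 1 cluster gave 0.88 in place of 2.52 in PUT direct SPN-like nuclei, and 0.53 in place of 1.25 in CN oligodendrocyte-like nuclei, the latter inside the fold. All 3 CT libraries lay on one side and all 3 PD libraries on the other, so library and treatment cannot be told apart.

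**Figure D4:**
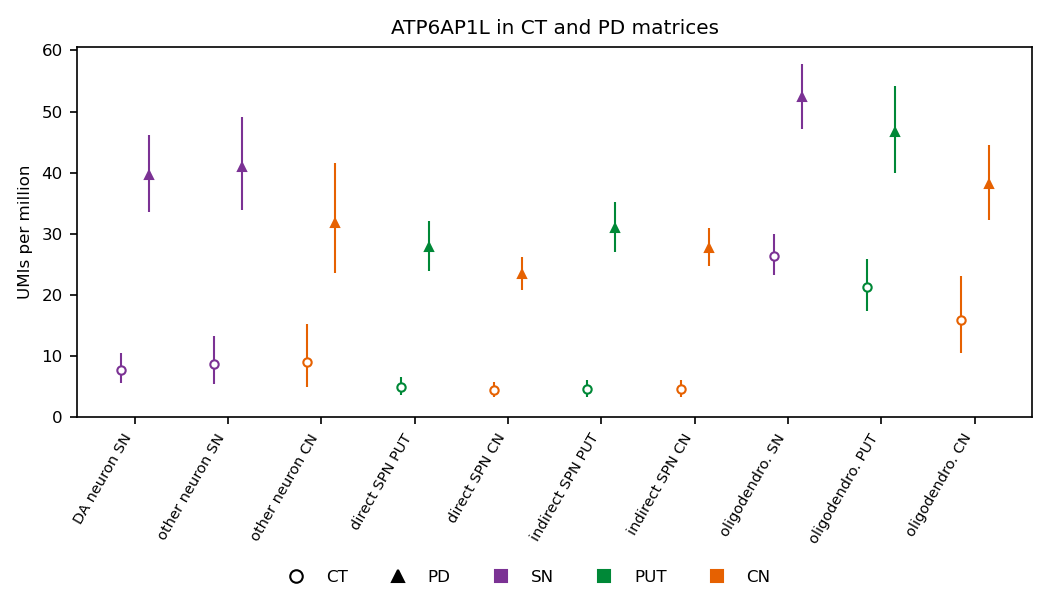
CPM of ATP6AP1L (vertical axis, linear from 0) in the 10 class and region pairs where it was measured (horizontal axis); open circles are CT, filled triangles PD, bars exact 95% Poisson intervals. Every PD value lies above its CT partner, by 1.98 times in SN oligodendrocyte-like nuclei and by 6.81 times in PUT indirect SPN-like nuclei.

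ATP6AP1 itself, an accessory subunit in V-ATPase assembly, moved the other way. It was past the fold lower in 6 of 11 comparisons and past it higher in 0. PUT oligodendrocyte-like nuclei held 54.1 CPM in CT and 23.2 in PD, a ratio of 0.429 (0.331 to 0.551), and direct SPN-like nuclei of the PUT 22 and 12.7 (0.578, 0.444 to 0.747). In dopaminergic neuron-like nuclei it was at 13 and 6.75 CPM (0.521, 0.321 to 0.824), and in SN oligodendrocyte-like nuclei at 19.1 and 21.5 (1.13, 0.903 to 1.41). In CN oligodendrocyte-like nuclei the 0.595 (0.416 to 0.856) turned sign in nuclei with at least 1000 genes, with a log2 difference of 0.94, a setting that left 78 CT nuclei, under the 100 otherwise required. The cause was not tested. The ribosomal protein values given above stand beside the striatal ratios of ATP6AP1 too, and their part was not tested.

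ATP6AP2, the (pro)renin receptor, was past the fold lower in 1 of 10 comparisons. In direct SPN-like nuclei of the PUT it was at 15.8 CPM in CT and 9.64 in PD (0.612, 0.45 to 0.825), and its log2 difference of -0.70 was -0.57 after thinning. Its SN ratios were 0.966 (0.643 to 1.44) in dopaminergic neuron-like nuclei and 1.18 (0.911 to 1.52) in oligodendrocyte-like nuclei.

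CTSD, the main lysosomal aspartyl protease, was higher in PD in SN glia-like nuclei. Oligodendrocyte-like nuclei held 25.3 CPM in CT and 45.3 in PD, a ratio of 1.79 (1.51 to 2.13). Microglia-like nuclei held 39.7 and 88.6 CPM (2.23, 1.35 to 3.77), and OPC-like nuclei 68.4 and 123.8 (1.81, 1.18 to 2.82). In other neurons the ratio was 1.41 (0.998 to 1.99) and in dopaminergic neuron-like nuclei, at 36.5 and 42 CPM, 1.15 (0.932 to 1.43).

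The SN difference of CTSD was also present inside clusters. Nearly all OPC-like nuclei of both libraries fell in 1 cluster, where the ratio was 1.84 (1.18 to 2.88), and all 10 ratios within single SN clusters were above 1, from 1.24 to 1.93. With mixed barcodes added, the log2 difference of OPC-like nuclei was 0.47 in place of 0.85. In the striatum CTSD was not higher: oligodendrocyte-like nuclei had 38.1 and 36.2 CPM in the PUT (0.95, 0.752 to 1.2) and 21.1 and 19.1 in the CN (0.908, 0.605 to 1.39). SPN-like nuclei of the CN had ratios of 0.666 (0.473 to 0.934) and 0.65 (0.457 to 0.918). Whether SN and striatum differ was not tested.

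CTSL, a cysteine endopeptidase, was below CT in 7 of 8 striatal comparisons. The exception was other neurons of the PUT, at 27.2 CPM in CT and 28.4 in PD (1.05, 0.611 to 1.77), and in SPN-like nuclei of the PUT the ratios of 0.735 (direct) and 0.688 (indirect) stayed inside the fold. CN oligodendrocyte-like nuclei held 42.2 CPM in CT and 16.9 in PD, a ratio of 0.402 (0.285 to 0.567). Their 3 CT clusters were at 28.3 to 46.7 CPM and their 3 PD clusters at 15.7 to 23.9. Direct SPN-like nuclei of the CN held 23.6 and 12.6 CPM (0.537, 0.439 to 0.655), and PUT oligodendrocyte-like nuclei 31.7 and 19.6 (0.618, 0.459 to 0.826). In the SN the ratios were 1.04 (0.812 to 1.33) in oligodendrocyte-like nuclei and 1.29 (1.02 to 1.64) in dopaminergic neuron-like nuclei. Inside 1 cluster the log2 difference of CN oligodendrocyte-like nuclei was -0.60 in place of -1.31.

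Microglia-like nuclei of the SN changed their makeup between libraries. In CT, 665 of 678 nuclei fell in cluster 5.0. In PD, 152 of 534 did, 229 fell in cluster 12.1 and 143 in its smaller partner, plotted beside it. Summed border macrophage markers were 292.9 CPM in CT and 986.7 in PD, none of 6 at 0 in either. T or NK cell markers summed to 12.2 and 79 CPM, with 4 of 8 at 0 in CT and 0 in PD, and the 10 microglia or macrophage markers to 5972 and 3850.

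ATP6V0A1 was higher in each PD cluster of these nuclei. The CT nuclei of cluster 5.0 held 346 CPM (302 to 394.5) and the PD nuclei of the same cluster 609.7 (492.7 to 746.1). The smaller partner and cluster 12.1 held 636.2 and 769.1 in PD. The ratio within cluster 5.0 was 1.76 (1.37 to 2.25).

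CTSC was at 198.6 CPM (165.7 to 236.1) in cluster 5.0 of CT, 285.4 (207.4 to 383.1) in cluster 5.0 of PD, 233.3 in the smaller partner and 410.2 in cluster 12.1. Its ratio over the class was 1.64 (1.3 to 2.08), and in nuclei with at least 1000 genes its log2 difference was 0.28, inside the fold. CTSD stood at 40.3 CPM in CT and at 71.4, 84.8 and 107.2 in the 3 PD clusters, from 11 to 23 UMIs each. CTSS was at 339.7 CPM in CT and 259.5 to 304 in the PD clusters. Its ratio over the class, 0.829, had an interval that held 1 (0.6685 to 1.025). ATP6V1C1, past the fold over the class (1.52, 1.09 to 2.11), was at 107 CPM in CT and 97.3 in PD within cluster 5.0. The part of the border macrophage and T or NK cell markers in these values was not tested.

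**Figure D5:**
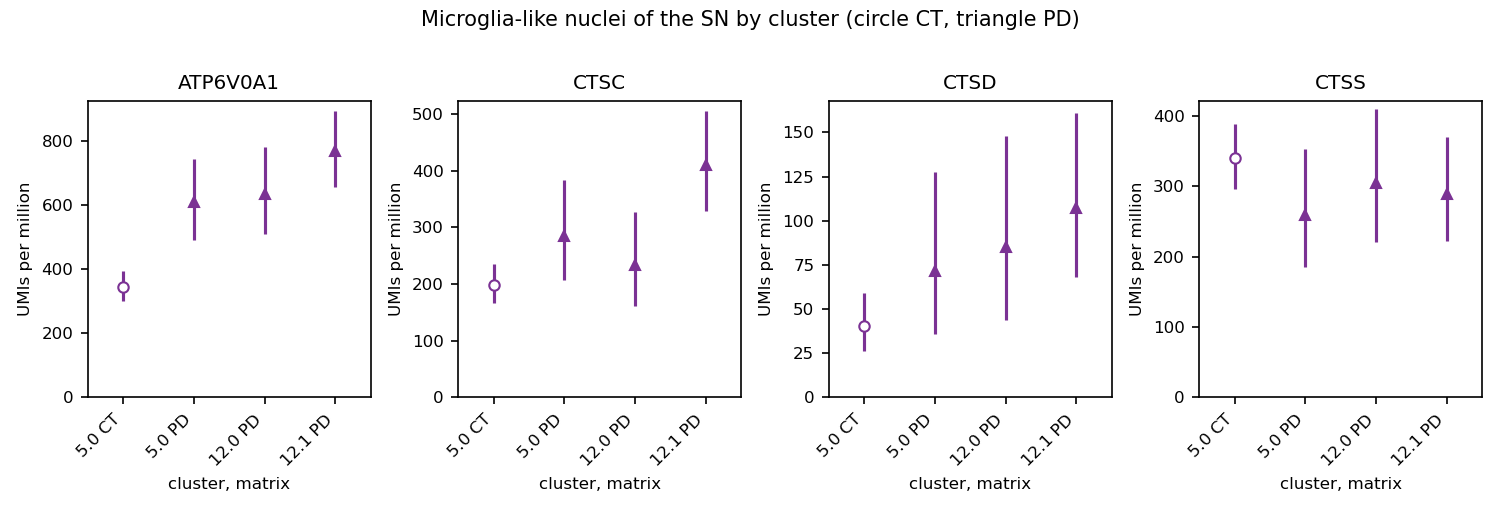
CPM (linear axes from 0) of ATP6V0A1, CTSC, CTSD and CTSS in SN microglia-like nuclei by cluster and matrix; the circle is CT, triangles are PD, bars exact 95% Poisson intervals. ATP6V0A1 stands at 346 in the CT nuclei of cluster 5.0 and at 609.7 in the PD nuclei of that cluster, while CTSS lies between 259.5 and 339.7.

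Striatal microglia-like nuclei fell mostly in cluster 5.1 in CT and in cluster 5.2 in PD. CTSH was higher in PD in the PUT, at 225.8 and 366.8 CPM (1.62, 1.2 to 2.21), and its CN ratio of 1.52 had an interval that held 1 (0.994 to 2.4). CTSC in the PUT was at 65.5 and 127.2 CPM (1.94, 1.12 to 3.49), while in the CN it was even, at 299.8 and 292.5 (0.976, 0.69 to 1.4). CTSS was lower in the PUT (0.623, 0.441 to 0.876), but the sign turned in nuclei with at least 1000 genes (log2 0.36) and after thinning (0.15). ATP6V1B2 was higher in the CN, at 50 and 114.9 CPM, with 8 UMIs in CT (2.3, 1.07 to 5.66). ATP6V0B was lower in the PUT, at 117.8 and 56.2 CPM (0.477, 0.259 to 0.854), where ribosomal protein genes had a median of -0.36.

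Oligodendrocyte-like nuclei of the SN held 4.58 CPM of CTSC in CT and 8.49 in PD, a ratio of 1.85 (1.23 to 2.81). In the microglia-like nuclei of the same libraries the gene stood at 198.3 and 325.7 CPM. The part of free RNA in the oligodendrocyte values was not tested.

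The other cathepsins were past the fold in few comparisons. CTSA was below CT in all 8 comparisons where it was measured, with ratios of 0.705 to 0.964, and past the fold in 0. CTSB was past it in 0 of 11, with ratios of 0.689 to 1.23. CTSZ (2 comparisons) and CTSO (6) were past it in 0, CTSK in 1 of 9 and CTSF in 1 of 2, where its interval held 1 (0.876 to 2.95).

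Of the LAMPs, LAMP1 was past the fold in 0 of 9 comparisons, with ratios of 0.774 to 1.24. LAMP2 was higher in PD dopaminergic neuron-like nuclei, inside the fold, at 74.4 and 90.3 CPM (1.21, 1.05 to 1.4). It was below CT in striatal SPN-like and oligodendrocyte-like nuclei and in other neurons of the striatum, with 0.8 (0.707 to 0.905) in direct SPN-like nuclei of the PUT and 0.783 (0.715 to 0.857) in PUT oligodendrocyte-like nuclei, and past the fold in other neurons of the PUT (0.597, 0.432 to 0.815). In CN astrocyte-like nuclei it was even, at 92.6 and 95.1 CPM (1.03, 0.671 to 1.56), and in CN OPC-like nuclei, with 49 UMIs in all, it stood at 45.7 and 69.9 (1.53, 0.83 to 2.91). Past the fold lower with intervals that held 1 were microglia-like nuclei of the PUT (0.639, 0.383 to 1.05) and OPC-like nuclei of the SN (0.613, 0.344 to 1.06). LAMP5 was below CT in SPN-like nuclei in all 4 comparisons, with 49 and 28.4 CPM in the indirect class of the PUT (0.58, 0.49 to 0.684). In CT its SPN clusters spread from 5.49 to 140.6 CPM, and the part of cluster makeup in this ratio was not tested.

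Other lysosomal genes were taken from lists of hydrolases (22 annotated), membrane proteins and channels (18), pump assembly (12), MiT/TFE factors (4), cathepsin inhibitors (6) and sorting (11). In SN microglia-like nuclei, of 11 measured membrane proteins and channels 3 were past the fold higher (14.7% of all genes) and 2 lower (10.9%). GPNMB, a glycoprotein of phagocytes, went from 27.5 CPM in CT to 304.5 in PD (11.1, 6.79 to 19.2) and SCARB2, the receptor that carries glucocerebrosidase to lysosomes, from 103.8 to 246.7 (2.38, 1.76 to 3.24). LAPTM5 went from 280.7 to 134.9 (0.48, 0.36 to 0.636) and NPC1 from 189.2 to 92.5 (0.489, 0.343 to 0.687). These libraries also differed in summed border macrophage markers, 292.9 CPM in CT and 986.7 in PD, and in the share of their nuclei in cluster 5.0, 665 of 678 in CT and 152 of 534 in PD. The part of both in the SN microglia-like values of these other lysosomal genes was not tested.

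Among 5 measured regulators of pump assembly in the same nuclei, 1 was higher and 1 lower, beside the same 14.7% and 10.9% of all genes. DMXL2, a rabconnectin that helps V1 and V0 join, was at 56.5 CPM in CT and 441.3 in PD in the SN (7.82, 5.51 to 11.4), and at 99.9 and 224.6 in the CN (2.25, 1.31 to 4.11). Of 4 MiT/TFE transcription factors, which drive lysosomal genes, 2 were higher and 1 lower in SN microglia-like nuclei, against that same background. TFEC went from 99.2 to 267.9 CPM (2.7, 2 to 3.68), and MITF was higher in the SN (1.6, 1.38 to 1.86), the PUT (2.04, 1.35 to 3.13) and the CN (1.6, 1.05 to 2.52).

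Of 15 measured membrane proteins and channels in SPN-like nuclei, 0 were higher (5.24% of all genes) and 3 lower (8.65%) in the direct class of the PUT. In the indirect class of the CN, where the median over all genes was -0.15, 0 were higher (3.62%) and 3 lower (14.0%). TPCN2, an ion channel of endolysosomes, went from 9.41 CPM in CT to 1.75 in PD in direct SPN-like nuclei of the PUT (0.186, 0.0927 to 0.343). It was past the fold lower in the other SPN comparisons too, with 0.401 (0.263 to 0.599) in the direct class of the CN, and 0.367 (0.208 to 0.616) in the PUT and 0.542 (0.346 to 0.837) in the CN in the indirect class. TMEM175, a lysosomal ion channel, was at 60.9 CPM in CT and 34 in PD in direct SPN-like nuclei of the PUT (0.558, 0.477 to 0.652). CSTB, an inhibitor of cysteine cathepsins, went from 20 to 11.3 CPM in the indirect class of the PUT (0.563, 0.429 to 0.732) and from 19.3 to 9.98 in that of the CN (0.516, 0.404 to 0.656). LMAN1, a cargo receptor of the secretory route, went from 20.8 to 7 CPM in the indirect class of the PUT (0.336, 0.242 to 0.459). Counts past the fold are not given here for the inhibitor and sorting lists. Other listed genes had intervals above 1. These included OXR1 in both classes of both regions, NAGLU and MITF in the direct class of the CN and the indirect class of both regions, and M6PR in both CN classes. DMXL1, of the same list as OXR1, was lower in both classes of both regions. Of 19 and 20 measured hydrolases in the indirect class, 1 was higher (5.37%) and 0 lower (8.5%) in the PUT, and 0 higher (3.62%) and 1 lower (14.0%) in the CN.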

How the data were processed

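Nuclei were isolated with a commercial kit and run with 10x 3′ v3 chemistry, per the labels' protocols, which name Macaca_mulatta. The deposited values are UMI counts per gene and barcode, not normalized, and Cell Ranger 7.0.1 is the tool that the submitters' processing notes name for the authors' counting. These notes name hg38, while gene identifiers are those of Macaca fascicularis. The annotation release is not given in the sources used here. Region and treatment of a matrix come from its name. The labels list 32 samples and no file ties barcodes to them, so each matrix was 1 library.

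Barcodes were dropped below 500 genes, above 5% mitochondrial UMIs, or above a Scrublet score of 0.25 (expected rate 0.06). No free RNA was removed. Clustering used log values of counts scaled to 10000. With scanpy 1.11.5, 2000 variable genes (members and mitochondrial genes left out), 30 components and 15 neighbours gave Leiden clusters at resolution 1.0, clustered again with 1000 genes at resolution 0.5. Clusters were named from 119 marker genes, 117 of them annotated, as the family with the highest median relative level (at least 0.15). Clusters of fewer than 20 nuclei stayed unnamed, and those with a median doublet score of at least 0.15 or a strong second family were set aside as mixed. These naming rules were set after seeing the data. Members, lists and the rule for named genes were chosen with earlier results of these data known.

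UMIs were summed per class and library. Named members were those past the fold in the same direction in at least 2 regions of a class (or in its only region) with an interval leaving out 1, the 2 highest and 2 lowest of each comparison ranked by the end of the interval closer to a ratio of 1, those highest in 1 class of every matrix by at least 2 times, and a fixed set (LAMP1, LAMP2, CTSD, CTSB, CTSL, CTSS, ATP6V0D2, ATP6V1A, ATP6AP2). Other members were added after their values were seen, as were the ribosomal protein genes and the values by cluster. The ratio script was tested on simulated data. Alternatives were filters of 200 and 1000 genes, no doublet removal, mixed barcodes added, thinning to 1000 UMIs, centring, a minimum of 200 UMIs, 1 UMI added, 1 cluster per class and a fold of 2. The closing section gives their effect.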

Additional observations from a re-analysis of the deposited data

Results flagged for a closer look

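In oligodendrocyte-like nuclei the ratio of PD over CT of ATP6V0C lay on opposite sides of 1 in different regions, with every interval leaving out 1: 1.23 in the SN, 0.394 in the PUT and 0.711 in the CN. It was marked because the same contrast went opposite ways in the SN and in both striatal regions. The difference between regions was not tested.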

How the results depend on the processing

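No paired analysis was possible because each region and treatment has 1 matrix, whose columns carry no replicate numbers; for the same reason no replicate could be left out. Members past the fold higher, summed over the compared classes, numbered 13 in the SN, 9 in the PUT and 15 in the CN, and lower 6, 21 and 15. Thinning to 1000 UMIs gave 5, 3 and 6 higher and 1 lower in the SN. A minimum of 200 UMIs gave 5, 4 and 6 higher and 1, 12 and 9 lower. Within 1 cluster per class they were 7, 3 and 6 higher, with 12 lower in the PUT and 5 in the CN. A fold of 2 gave 4, 3 and 7 higher and 1, 6 and 1 lower. Centring gave 7 lower in the CN. These settings test fewer UMIs or set a higher bar, and centring removes the median over all genes. No share of all genes stands beside these sums, so they are not read as a result about the members. All genes also leaned lower in PUT oligodendrocyte-like nuclei, with 5.11% past the fold higher and 13.8% lower. They leaned higher in striatal microglia-like nuclei, with 9.34% and 8.31% in the PUT and 12.1% and 8.26% in the CN. The median of members in CN oligodendrocyte-like nuclei was 0.045 with at least 1000 genes (7 members, 78 CT nuclei).

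Of 2155 recomputed log2 values of named members, 1961 moved by less than their interval and 185 by more. The remaining 9 were turns of sign, counted apart only for values past the fold and not for values inside it. With at least 1000 genes these were ATP6AP1 in CN oligodendrocyte-like nuclei (0.94), CTSH in CN microglia-like nuclei (-0.047) and CTSS in PUT microglia-like nuclei (0.36). After thinning they were ATP6V1B2 in dopaminergic neuron-like nuclei (-0.69), CTSH in PUT indirect SPN-like nuclei (-0.045) and CTSS in PUT microglia-like nuclei (0.15). Within 1 cluster they were ATP6V1C1 in SN microglia-like nuclei (-0.10), ATP6V1F in CN direct SPN-like nuclei (0.087) and CTSH in SN other neurons (0.35). Thinned values rest on fewer UMIs, and no interval is given for them here. The cause of the turns of sign was not tested. Of 74 values past the fold of members named by the rule, 35 stayed past it in the same direction under every setting that gave a value. Values past the fold of ATP6V0D1, ATP6V1D, CTSK and CTSF are not among the 74. Low counts limit most members outside neurons and oligodendrocytes, where few reached the 50 UMIs needed.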
